A study of Mus musculus with 12 samples.

Results

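PIWI proteins are Argonaute-family proteins that carry piRNAs, the short guide RNAs of the germ line, and this account follows 10 mouse genes of that system in fetal testes: the PIWI genes Piwil1, Piwil2 and Piwil4 and their partners Gtsf1, Mael, Mov10l1, Asz1, Pld6, Fkbp6 and Henmt1. Members were chosen by name, with earlier results of these data known. Their values are those of every probe set that the platform annotation assigns to 1 of these genes and to no other gene. A probe set is a group of short array probes summarised into 1 value. By that rule 12 of the 45101 probe sets belonged to 9 of the 10 genes; Fkbp6, which encodes a co-chaperone of PIWI proteins, had no probe set assigned only to it and has no value here. All 12 passed the filter on low values, an intensity of at least 16 (log2 of 4) on at least 3 of the 12 arrays, although Henmt1 passed it only through wild-type arrays. The Piwil4 probe set 1439716_at reached 16 on 3 129Sv wild-type arrays, 1 129Sv knockout array and 1 B6 wild-type array, so it passed only with 129Sv wild type.

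The study compared testes with and without Dmrt1, a DM-domain transcription factor of germ and Sertoli cells, in embryos of the mouse strains 129Sv and B6 at E15.5. Total RNA was hybridised to 12 Affymetrix arrays, 3 in each of 4 groups: 129Sv wild type, 129Sv Dmrt1 knockout, B6 wild type and B6 Dmrt1 knockout. The sample labels call the mutants knockouts, whereas the series design describes conditional loss; no source used here names the driver of such a removal, the part of the gene removed or the number of embryos behind each array. One growth protocol names P28 for the embryos, against the E15.5 of every sample label. Nothing in the labels says that the 3 samples of a group came from separate embryos, so the p-values reflect sample-to-sample spread that may be technical. Titles give a shared first number to wild-type array 1 and knockout array 1 of B6 and another to the second arrays of both B6 groups, without saying what it marks. Within each group the first numbers given all differ, and B6 wild-type array 3 has none.

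In the fetal testis, germ cells enter mitotic arrest and rebuild the DNA methylation of their genome. The cytoplasmic PIWI protein MILI, encoded by Piwil2, cuts transposon transcripts into piRNAs at germ granules between mitochondria, and those piRNAs load MIWI2, encoded by Piwil4, which enters the nucleus and directs methylation to transposons. MIWI, encoded by Piwil1, is best known from meiotic and later spermatogenic cells. Around them, Mov10l1 hands over precursor transcripts, Pld6 cuts them on the mitochondrial surface, Asz1 holds the granules at that surface, and Henmt1 methylates the ends of finished piRNAs.

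The bases just before the start sites of 5 members are shown because these genes had the lowest knockout to wild-type ratios in B6 (Piwil1, Gtsf1, Piwil4) or carry a CACGTG together with a call in B6 (Piwil1, Mov10l1, Mael). They are RefSeq sequences of GRCm38.p6, 250 bases ending at the start site, on the strand of the gene and written 5′ to 3′. Capitals mark each CG and each CACGTG. Piwil1 lies on the plus strand (chr5:128735996-128736245), Mov10l1 on the plus strand (chr15:88982744-88982993), Mael on the minus strand (chr1:166238745-166238994), Gtsf1 on the minus strand (chr15:103430428-103430677), and the window of the first of the listed Piwil4 starts on the minus strand (chr9:14740673-14740922).
Piwil1: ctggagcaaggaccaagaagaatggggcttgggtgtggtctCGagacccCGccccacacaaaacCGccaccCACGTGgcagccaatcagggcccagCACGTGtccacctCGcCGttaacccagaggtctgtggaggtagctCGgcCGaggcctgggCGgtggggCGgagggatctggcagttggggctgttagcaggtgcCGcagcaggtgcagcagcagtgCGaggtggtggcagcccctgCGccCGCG
Mov10l1: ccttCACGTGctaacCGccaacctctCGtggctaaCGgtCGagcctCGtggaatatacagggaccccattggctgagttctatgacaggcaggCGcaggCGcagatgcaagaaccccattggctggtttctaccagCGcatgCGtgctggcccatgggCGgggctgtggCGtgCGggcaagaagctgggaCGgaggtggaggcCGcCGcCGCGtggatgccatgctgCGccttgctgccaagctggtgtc
Mael: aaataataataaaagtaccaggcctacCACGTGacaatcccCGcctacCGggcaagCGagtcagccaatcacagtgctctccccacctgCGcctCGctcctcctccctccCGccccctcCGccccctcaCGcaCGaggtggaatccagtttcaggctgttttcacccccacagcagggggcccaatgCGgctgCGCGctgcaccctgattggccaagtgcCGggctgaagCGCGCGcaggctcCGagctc
Gtsf1: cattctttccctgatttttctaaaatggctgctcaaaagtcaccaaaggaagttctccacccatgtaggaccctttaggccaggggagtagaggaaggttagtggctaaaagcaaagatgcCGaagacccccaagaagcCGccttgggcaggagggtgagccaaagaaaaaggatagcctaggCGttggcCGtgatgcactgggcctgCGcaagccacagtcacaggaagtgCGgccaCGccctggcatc
Piwil4: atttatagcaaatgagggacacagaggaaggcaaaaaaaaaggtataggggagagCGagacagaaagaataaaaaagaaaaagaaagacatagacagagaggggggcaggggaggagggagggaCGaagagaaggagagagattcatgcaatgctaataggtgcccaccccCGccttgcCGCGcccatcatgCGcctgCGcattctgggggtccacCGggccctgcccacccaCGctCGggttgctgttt

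Piwil1 held 2 copies of CACGTG, beginning 179 and 154 bases before the start, Mov10l1 held 1 at 246 bases and Mael 1 at 223 bases, while these windows of Gtsf1 and Piwil4 held none. CACGTG, an E-box, which reads the same on both strands, was present in 6 of the 12 windows of the 9 members with an entry. Those windows belonged to 5 members (Piwil1, Mov10l1, Mael, Pld6 and Fkbp6), and the Fkbp6 windows overlap and hold the same copies. Over 32851 windows of all genes, 6.02% held it. The number of CG was 16 for Piwil1, 19 for Mov10l1, 18 for Mael, 7 for Gtsf1 and 10 for Piwil4, against a median of 6.0 over all windows. ACANTGT, letters of the kind that DM-domain proteins bind and the same on both strands, was in 0 of the 12 windows of the 9 members, against 6.47% of all windows. TCCCGC, letters bound by some E2F-family proteins and searched on both strands, was in the Mael window only, and 16.9% of all windows held it. In the Mael window, which held 2 kinds of motif, they did not overlap, and a match describes the window only. The 9 are the members other than Piwil2.

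Dmrt1 itself was checked first. Its probe set 1423582_at read 1040.3 ± 132 (SD, n = 3) in 129Sv wild type and 167 ± 18.9 in 129Sv knockout, and 984 ± 164 in B6 wild type and 74.4 ± 11.3 in B6 knockout. The knockouts were thus 6.24-fold and 13.2-fold lower, with log2 differences of -2.64 ± 0.17 (SE) and -3.72 ± 0.17 and adjusted p of 3.21e-06 and 2.57e-07 (limma, Benjamini-Hochberg over 24820 probe sets). Intensities within a group correlated at r of 0.983 to 0.998, and no arrays held identical values. Degraded RNA raises the signal of the 3′ Actb control probe set over that of its 5′ counterpart, and this ratio was 6.30 on B6 knockout array 3, 5.24 on 129Sv knockout array 1 and 1.99 to 3.91 on the others.

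In the B6 knockout, 7 of 8 genes fell: Piwil1, Piwil2, Piwil4, Gtsf1, Mael, Mov10l1 and Asz1, each judged by its brightest probe set, with Pld6 not called. Henmt1 was called lower too, but it passed the filter only through wild-type arrays, so it is left out of this count. The median log2 difference of the 8 was -1.38, beside 0.01 over all tested probe sets, and 3.44% of all tested probe sets were called lower in B6 at an adjusted p under 0.05. In 129Sv, 1 of the 8 was called lower, Piwil1, with a median of -0.31 beside -0.01 over all probe sets and 2.51% of all called lower. The effect of the knockout differed between the strains by its own test for 2 of the 8, Gtsf1 and Asz1, where 0.274% of all probe sets passed in that direction. Of the 12 probe sets, 11 had every B6 knockout array below every B6 wild-type array, against 12.8% of all tested probe sets. In 129Sv the same held for 6 of 12, against 13.4%. Both counts include Henmt1 and the dimmer Piwil4 probe set. Henmt1 passed the filter only through wild-type arrays, and that Piwil4 probe set only with 129Sv wild type. Their places in the 129Sv count, and that of Henmt1 in the B6 count, are thus not independent of the filter.

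**Figure D1:**
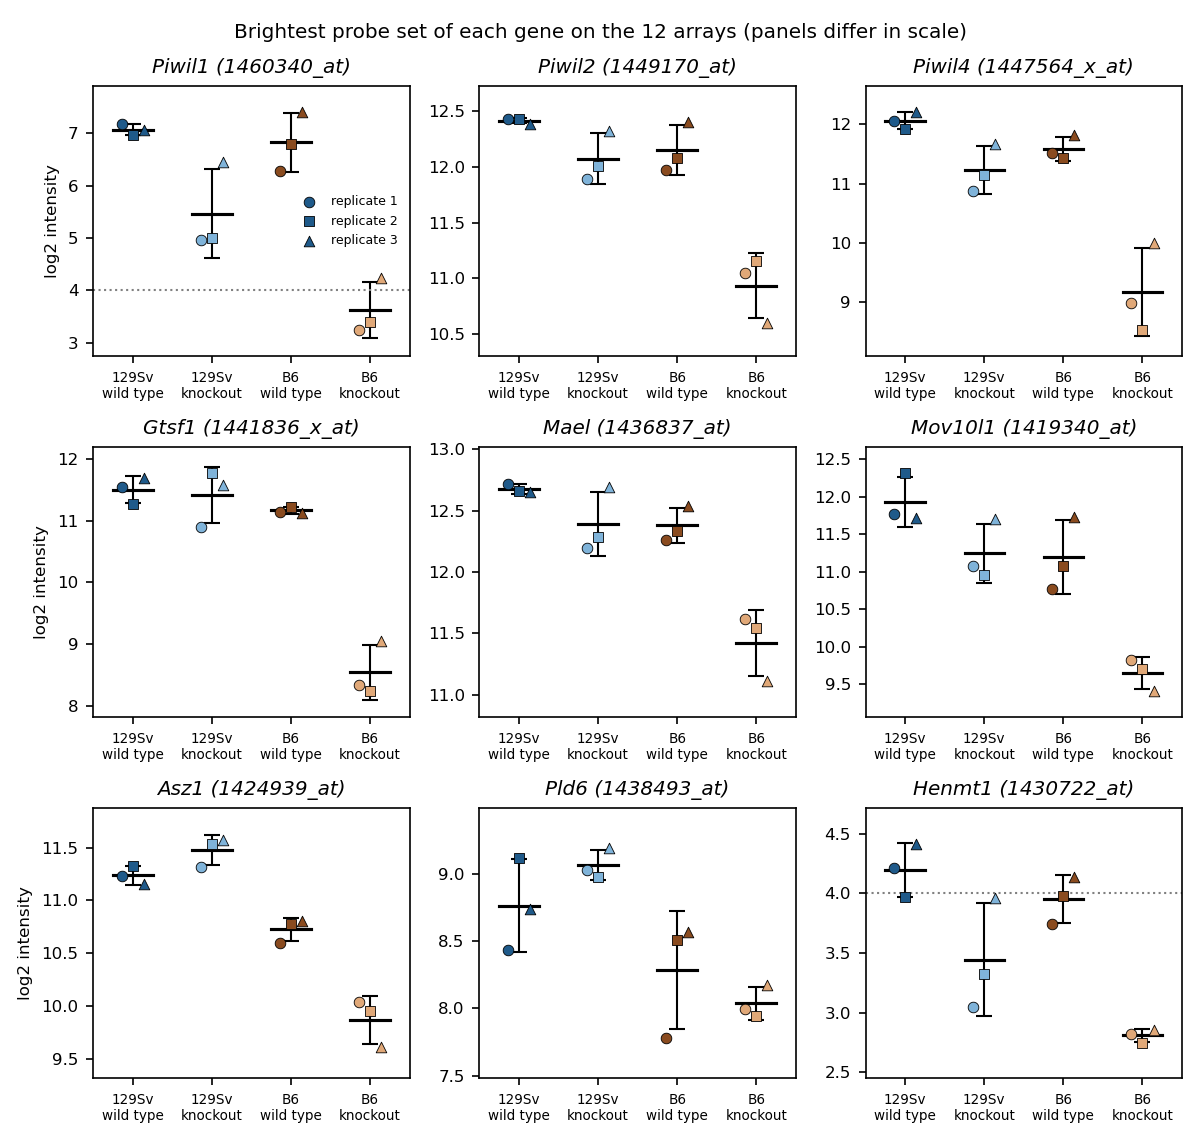
Log2 intensity of the brightest probe set of each of the 9 genes (vertical axis, a different scale in each panel) on the 12 arrays, by strain and genotype; symbols mark replicates, long bars group means and whiskers the SD of 3 arrays, and a dotted line marks log2 of 4 where it falls in a panel. The B6 knockout arrays are the lowest group in every panel and overlap the B6 wild type only for Pld6.

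Among the PIWI genes, Piwil1 had the lowest ratio of knockout to wild type in B6. Piwil1 (1460340_at) read 77.8, 111 and 169 on the B6 wild-type arrays and 9.45, 10.6 and 18.9 on the B6 knockout arrays. Of the knockout arrays, only the third reached the intensity of 16 that separates measured from low values, and no knockout array came near a wild-type one. The fitted log2 difference was -3.20 ± 0.39 (adjusted p = 0.000548), and since the knockout mean lay under 16, the fold is given as a bound, at least 7.10-fold lower.

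In 129Sv, Piwil1 read 145, 125 and 134 in wild type and 31.1, 31.9 and 87.0 in knockout. The wild-type arrays were close together, and the third knockout array stood far above the other two without reaching wild type. The difference was -1.61 ± 0.39, a 3.05-fold lower level (adjusted p = 0.0314). The call was lost with single arrays left out: the adjusted p was 0.0793 to 0.146 when any of wild-type array 1, 2 or 3 or knockout array 1 or 2 was left out, with differences of -1.35 to -1.66. It was 0.0659 without the pair of arrays of highest Actb ratio (-1.35). With the number that stands before the strain code in the sample titles as a covariate, coded as 7 or not 7, it was 0.30 (-1.51). All 129Sv knockouts carry 7 there, as does 129Sv wild-type array 2, and no other array does. Every fit with this title number as a covariate thus rests on how 129Sv wild-type array 2 differs from the other arrays of its group. The difference of the strains in knockout effect, 1.59 ± 0.56, did not pass (adjusted p = 0.254; 95% interval 0.39 to 2.79).

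Piwil2 (1449170_at), the gene of MILI, gave 4012, 4314 and 5404 in B6 wild type and 2121, 2275 and 1555 in B6 knockout. The groups did not overlap, and the level fell 2.32-fold (-1.21 ± 0.15, adjusted p = 0.000571). In 129Sv, wild type read 5493, 5489.9 and 5352, and knockout read 3789.7, 4111 and 5127. All knockout arrays lay below the wild-type arrays, the third just below them, and the difference of -0.34 ± 0.15 did not pass (adjusted p = 0.265). The strains differed in knockout effect by 0.88 ± 0.21, which did not pass either (adjusted p = 0.109).

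Piwil4, the gene of MIWI2, was measured by a pair of probe sets. Probe set 1447564_x_at read 2921, 2769 and 3612 in B6 wild type and 506, 367 and 1015 in B6 knockout. Again the groups were far apart, with the third knockout array the highest of its group, and the level fell 5.37-fold (-2.42 ± 0.29, adjusted p = 0.000467). In 129Sv the same probe set read 4279.6, 3859 and 4727 in wild type and 1866, 2259 and 3251 in knockout. The 129Sv groups did not overlap, but the difference of -0.84 ± 0.29 missed the threshold (adjusted p = 0.133). It passed in the fit of the 129Sv arrays alone (adjusted p = 0.0188) and without B6 knockout array 3 (0.0144).

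The second Piwil4 probe set, 1439716_at, was dim. It passed the filter only with its 129Sv wild-type arrays, so calls that use that group are not independent of the filter. The probe set read 24.5, 60.1 and 35.8 in 129Sv wild type and 17.3, 12.9 and 15.3 in 129Sv knockout, and was called lower (-1.32 ± 0.35, adjusted p = 0.0451, at least 2.34-fold). That call was kept in 12 of 25 alternatives and was lost without any one 129Sv knockout array (adjusted p of 0.0916 to 0.168), 129Sv wild-type array 2 (-0.98, 0.173) or 3 (-1.35, 0.125), B6 knockout array 1 or 2 or B6 wild-type array 2 (0.0535 to 0.0598). In B6 it read 11.2, 14.1 and 25.3 in wild type and 6.41, 6.74 and 9.63 in knockout, where both means lay under 16 and the difference of -1.09 ± 0.35 did not pass (adjusted p = 0.099). On this probe set the strains' effects differed by -0.23 ± 0.49, which did not pass (adjusted p = 0.86).

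The strains differed in the effect on bright Piwil4 probe set 1447564_x_at by 1.59 ± 0.41 (adjusted p = 0.128). Without B6 knockout array 3, the array of highest Actb ratio and the highest of its group for Piwil4, this difference was 2.00 and passed (adjusted p = 0.00722). It was 2.18 (adjusted p = 0.003) without both arrays of highest Actb ratio and 1.73 (adjusted p = 0.096) with the Actb ratio as a covariate.

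Gtsf1, a small zinc finger protein that binds PIWI proteins and speeds their cutting of targets, showed the largest difference of knockout effect between the strains among the 9 genes. Its probe set 1441836_x_at read 2271, 2401 and 2228 in B6 wild type and 323, 302 and 532 in B6 knockout. The level fell 6.17-fold (-2.62 ± 0.23, adjusted p = 3.56e-05). In 129Sv it read 2999, 2463 and 3320.2 in wild type and 1905, 3494 and 3065 in knockout. The 129Sv groups overlapped, the highest array of all being a knockout, and the difference was -0.09 ± 0.23 (adjusted p = 0.912; 95% interval -0.58 to 0.41).

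The second Gtsf1 probe set, 1452967_at, gave the same split. It read 746, 1212 and 1181 in B6 wild type and 115, 116 and 133 in B6 knockout, an 8.43-fold fall (-3.08 ± 0.26, adjusted p = 3.56e-05). It read 1555, 1369 and 1769.8 in 129Sv wild type and 837, 998 and 1906 in 129Sv knockout, where the groups overlapped (-0.41 ± 0.26, adjusted p = 0.484). The knockout effect differed between strains by 2.54 ± 0.32 on the first probe set (adjusted p = 0.00451) and by 2.66 ± 0.37 on the second (adjusted p = 0.00845). The first passed in 26 of 27 alternatives, all but the one that set each array relative to the germ cell genes Ddx4 and Dazl (2.02, adjusted p = 0.215), and the second in 23 of 25.

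**Figure D2:**
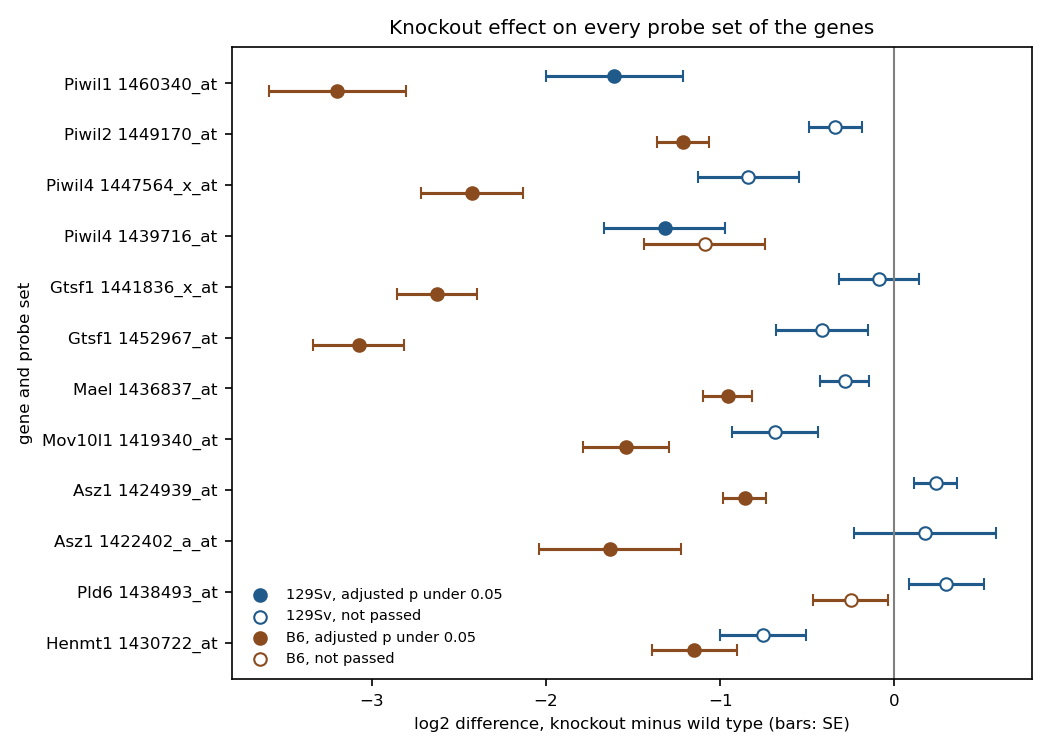
Log2 difference of knockout minus wild type (horizontal axis) with its SE for each of the 12 probe sets, 129Sv above B6 in each row; filled points have an adjusted p under 0.05. The strains stand farthest apart for both Gtsf1 probe sets, -0.09 and -0.41 in 129Sv against -2.62 and -3.08 in B6, and Pld6 has no filled point.

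Mael, a germ granule protein needed to silence retrotransposons, read 4917, 5162 and 5954 in B6 wild type and 3135, 2978 and 2218 in B6 knockout (1436837_at). The groups did not overlap, and the level fell 1.94-fold (-0.96 ± 0.14, adjusted p = 0.00183). In 129Sv it read 6743, 6459 and 6422 in wild type and 4702, 4980.1 and 6619 in knockout. The third knockout array lay among the wild-type arrays, and the difference of -0.28 ± 0.14 did not pass (adjusted p = 0.336). The strains' difference in effect, 0.67 ± 0.20, did not pass (adjusted p = 0.186).

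Mov10l1, the RNA helicase that binds piRNA precursors, read 1738, 2159 and 3391 in B6 wild type and 905, 836 and 679.6 in B6 knockout (1419340_at). Wild-type arrays varied more than knockout arrays, the groups stayed apart, and the level fell 2.91-fold (-1.54 ± 0.25, adjusted p = 0.0031). In 129Sv it read 3474, 5083 and 3365 in wild type and 2161, 1988 and 3316 in knockout. The third knockout array was just under the lowest wild-type array, and the difference of -0.69 ± 0.25 did not pass (adjusted p = 0.148). The knockout effects of the strains differed by 0.86 ± 0.35, which did not pass (adjusted p = 0.325).

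Asz1, the granule scaffold of the mitochondrial surface, read 1550.3, 1758 and 1784 in B6 wild type and 1053, 989.7 and 783 in B6 knockout (1424939_at). The level fell 1.81-fold with no overlap (-0.86 ± 0.12, adjusted p = 0.00139). In 129Sv it read 2400.4, 2574 and 2280.2 in wild type and 2551, 2969.8 and 3055 in knockout. Here the knockout arrays were level with or above the wild-type arrays, with a difference of 0.24 ± 0.12 that did not pass (adjusted p = 0.352). The effect differed between the strains by 1.10 ± 0.17 (adjusted p = 0.016). This last call was lost without any one of 129Sv wild-type arrays 1 and 3, 129Sv knockout arrays 2 and 3 and B6 wild-type arrays 2 and 3, with differences of 1.05 to 1.09 and adjusted p of 0.0513 to 0.0702. It was also lost with each array set relative to the germ cell genes Ddx4 and Dazl (0.58, adjusted p = 0.306), with the title number as a covariate (1.01, adjusted p = 0.172) and with the mean of the Asz1 probe sets (1.45, adjusted p = 0.0954).

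A second Asz1 probe set, 1422402_a_at, spread more. It read 192, 395 and 321 in B6 wild type and 148, 122 and 45.3 in B6 knockout (-1.63 ± 0.41, adjusted p = 0.0383). It read 289, 256 and 339.8 in 129Sv wild type and 215, 347 and 484 in 129Sv knockout, where the groups overlapped (0.18 ± 0.41, adjusted p = 0.90). Its B6 call was kept in 11 of 26 alternatives; without B6 knockout array 3 the difference was -1.11 (adjusted p = 0.0869), without B6 wild-type array 2 it was -1.41 (0.134), without B6 wild-type array 3 it was -1.55 (0.153) and without B6 knockout array 2 it was -1.82 (0.0562). It was also lost without 129Sv wild-type array 1, 2 or 3 or 129Sv knockout array 2, at an unmoved difference and adjusted p of 0.0523 to 0.0591. On this probe set the difference between the strains' effects, 1.81 ± 0.58, did not pass (adjusted p = 0.211).

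Pld6, the nuclease that cuts piRNA precursors, was the 1 measured gene called in neither strain. It read 219.8, 365 and 379 in B6 wild type and 255, 246 and 289 in B6 knockout (1438493_at). The knockout values lay inside the wild-type range, with a difference of -0.25 ± 0.21 (adjusted p = 0.515; 95% interval -0.71 to 0.21). In 129Sv it read 345, 557 and 428 in wild type and 523, 503 and 584 in knockout, with a difference of 0.30 ± 0.21 (adjusted p = 0.554; 95% interval -0.16 to 0.76). The intervals leave room for changes of that size in either strain.

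Henmt1, the piRNA methyltransferase, was at the edge of detection (1430722_at). It read 13.4, 15.8 and 17.7 in B6 wild type and 7.07, 6.72 and 7.24 in B6 knockout. The groups did not overlap and the gene was called lower (-1.15 ± 0.25, adjusted p = 0.0182), but both means lay under 16 and no fold is given. With every value under 16 raised to 16 the difference was -0.05 (adjusted p = 0.859), and the call was lost without B6 wild-type array 2 (-1.14, 0.0508), B6 wild-type array 3 (-1.05, 0.103) or B6 knockout array 2 (-1.12, 0.062). In 129Sv it read 18.6, 15.6 and 21.4 in wild type and 8.25, 10.0 and 15.6 in knockout (-0.75 ± 0.25, adjusted p = 0.108). Without 129Sv knockout array 3 that difference was -1.01 and passed (adjusted p = 0.0258).

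In wild type, Asz1 was 1.43-fold higher in 129Sv than in B6 wild type (0.51 ± 0.12, adjusted p = 0.015), the 1 gene of 9 called, where 8.22% of all tested probe sets were called higher. Asz1 lost this call without 129Sv wild-type array 2 (0.47, adjusted p = 0.0681) or B6 wild-type array 1 (0.45, adjusted p = 0.0713). The dim Piwil4 probe set 1439716_at was also higher in 129Sv wild type (1.24 ± 0.35, adjusted p = 0.0324, at least 2.34-fold), with overlapping arrays. It passed the filter only with the 129Sv wild-type arrays, so this call is not independent of the filter. The call held in 18 of 25 alternatives and was lost without 129Sv wild-type array 2 (0.90, adjusted p = 0.156) or 3 (adjusted p = 0.0785) or B6 wild-type array 1 (adjusted p = 0.138) or 2 (adjusted p = 0.0856). For 5 of the 12 probe sets every 129Sv wild-type array lay above every B6 one, against 22.9% of all tested probe sets.

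Between the knockouts, 129Sv was higher for 8 of the 9 genes, all but Henmt1, where 17.2% of all tested probe sets were called higher. Gtsf1 was 7.33-fold higher in 129Sv knockout than in B6 knockout on probe set 1441836_x_at (2.87 ± 0.23, adjusted p = 2.47e-06). Piwil4 was 4.17-fold higher (2.06 ± 0.29, adjusted p = 0.000241), Asz1 3.05-fold higher (1.61 ± 0.12, adjusted p = 1.71e-06) and Pld6 2.04-fold higher (1.03 ± 0.21, adjusted p = 0.00336). Markers of cell types moved with this comparison: Ddx4 was higher by 0.89 ± 0.16 (adjusted p = 0.00126), Dazl by 0.84 ± 0.21 (adjusted p = 0.0105) and 5 of 6 germ cell markers in all. The other germ cell marker, Kit, was lower (-0.975 ± 0.24, adjusted p = 0.00814), as it was in wild type (-1.16 ± 0.24, adjusted p = 0.00614). Also lower were 4 of 8 Sertoli, 3 of 4 Leydig, 3 of 5 endothelial, 2 of 5 macrophage and 1 of 5 interstitial markers, and the red blood cell gene Alas2. Of all 24820 tested probe sets, 3164 were called lower in this comparison. With each array set relative to Ddx4 and Dazl, which moved the median of all probe sets by -0.86, 4 genes were called higher, Gtsf1, Piwil4, Asz1 and Mov10l1, against 2.56% of all, and Pld6 differed by 0.17 (adjusted p = 0.634). With the title number as a covariate 3 were called, Gtsf1, Piwil4 and Asz1, and Pld6 differed by 0.49 (adjusted p = 0.465). All 12 probe sets separated the knockout groups without overlap, against 22.9% of all tested probe sets in that direction. For Henmt1 and the dim Piwil4 probe set 1439716_at both knockout means lay under 16. These comparisons use the same arrays as the knockout comparisons and are not independent of them.

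For each of the 12 probe sets B6 knockout was the lowest of the 4 groups, apart from the next group for all but Pld6. The share of all tested probe sets with B6 knockout lowest was not computed, so this count has no background. It includes Henmt1 and the dim Piwil4 probe set, which passed the filter only with wild-type arrays. The order above B6 knockout varied. For Piwil1, Piwil2, Piwil4 and Henmt1 it ran from 129Sv wild type through B6 wild type to 129Sv knockout, and for Gtsf1, Mael and Mov10l1 from 129Sv wild type through 129Sv knockout to B6 wild type. For Asz1 and Pld6 the 129Sv knockout stood first. Neighbouring groups above B6 knockout overlapped except for 129Sv wild type over B6 wild type on the bright Piwil4 probe set 1447564_x_at, 129Sv wild type over 129Sv knockout for Mov10l1, and 129Sv wild type over B6 wild type on the bright Asz1 probe set 1424939_at.

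Single arrays stood out over the genes together. 129Sv knockout array 3 was the highest of its group for 8 of the 9 genes, and 129Sv knockout array 1 the lowest for 7. B6 wild-type array 3 was likewise the highest of its group for 8, and B6 wild-type array 1 the lowest for 7. The mean log2 intensity of the 9 genes was 9.47, 9.66 and 10.13 on the 129Sv knockout arrays, against 10.18, 10.22 and 10.23 in 129Sv wild type. It was 9.56, 9.80 and 10.06 in B6 wild type and 8.21, 8.13 and 8.34 in B6 knockout.

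Since whole testes were measured, fewer cells of a type and less RNA per cell cannot be told apart. Ddx4 and Dazl, RNA-binding proteins found in germ cells at large, were not called in either strain: Ddx4 differed by 0.02 ± 0.16 in 129Sv (adjusted p = 0.969) and by -0.46 ± 0.16 in B6 (adjusted p = 0.124), and Dazl by 0.41 ± 0.21 (adjusted p = 0.361) and -0.13 ± 0.21 (adjusted p = 0.74). Yet every B6 knockout array lay below every B6 wild type for Ddx4 (95% interval -0.8 to -0.12), against 12.8% of all tested probe sets. Ddx4 was called lower there without B6 knockout array 1 (-0.62, adjusted p = 0.0362), and Dazl was called higher in 129Sv in 3 of 28 alternatives. Ddx4 is also counted below among the germ granule partners. The mean log2 intensity of Ddx4 and Dazl was 11.37, 11.29 and 11.38 on the B6 wild-type arrays and 11.48, 11.15 and 10.52 on the B6 knockout arrays. By these means the first B6 knockout array stood above every B6 wild type for the pair, and below every one for the 9 PIWI and piRNA genes. The pair was split on that array. Dazl read 2930, above the 2204 to 2287 of B6 wild type, but Ddx4 read 2771, below the 2859 to 3223 of B6 wild type. The array of highest Actb ratio was the low one for the pair. With each array set relative to Ddx4 and Dazl, which moved the median of all tested probe sets by -0.22 in 129Sv and 0.30 in B6, 5 genes were called lower in B6, Piwil1, Piwil2, Piwil4, Gtsf1 and Mov10l1, where 0.943% of all probe sets were. Asz1 (-0.56, adjusted p = 0.209), Mael (-0.66, adjusted p = 0.14) and Henmt1 (-0.85, adjusted p = 0.219) were not.

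**Figure D3:**
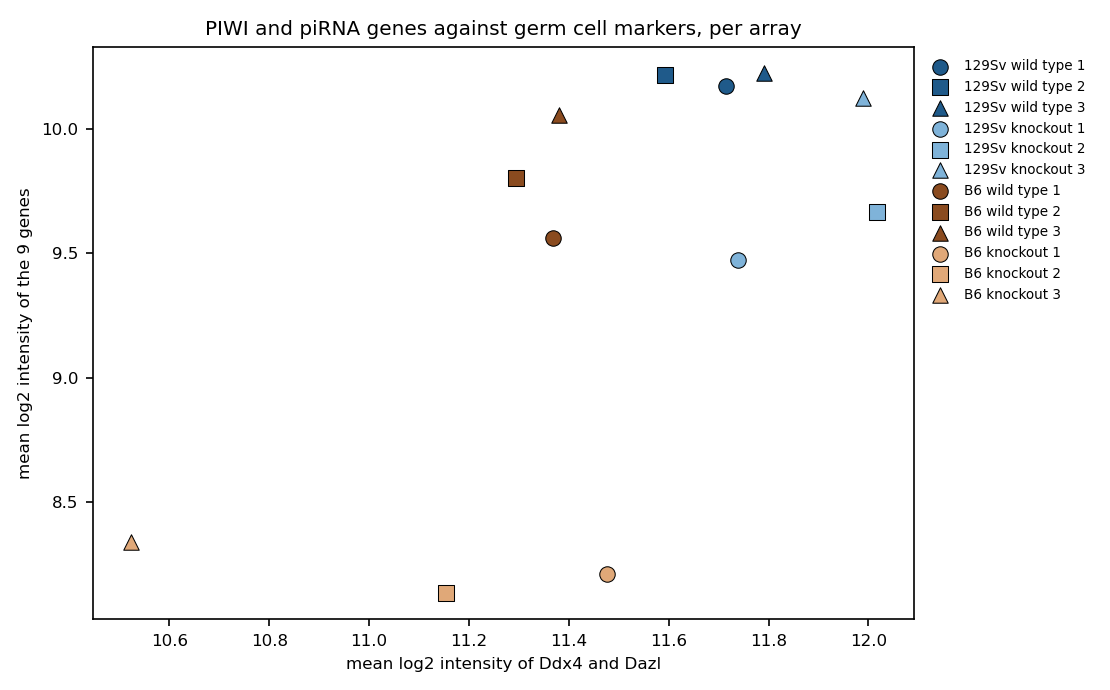
Each point is 1 of the 12 arrays, placed by its mean log2 intensity of the germ cell genes Ddx4 and Dazl (horizontal axis) and of the 9 PIWI and piRNA genes (vertical axis); colour gives the group and shape the replicate. The B6 knockout arrays lie at 8.13 to 8.34 on the vertical axis, below the 9.47 to 10.23 of all the others, while their Ddx4 and Dazl means run from 10.52 to 11.48.

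Of 6 germ cell markers, 5 with Ddx4 and Dazl among them were not called in B6 and Tex101 was lower, while in 129Sv Dppa3 was higher. Their summed intensity ran from 10504.9 to 10750.5 in 129Sv wild type, 12468 to 14849.6 in 129Sv knockout, 8347 to 9159 in B6 wild type and 6036 to 9832 in B6 knockout. Of 8 Sertoli cell markers Cst9 was lower in both strains, and the sum ran from 14845 to 16851 and 11593 to 14783 in 129Sv wild type and knockout, and from 16548 to 17483 and 15526 to 18993 in B6. None of 4 Leydig, 5 endothelial, 5 macrophage and 5 interstitial markers was called in either strain on its brightest probe set, and none of these markers or of the germ and Sertoli cell markers was below 16 on all arrays. A dimmer probe set of the Leydig gene Cyp11a1, 1439947_at, was higher in B6 knockout (0.88 ± 0.20, adjusted p = 0.0249). Of 2 red blood cell genes with a probe set, Hba-a1 was below 16 on all arrays and Alas2 was not called. The part of these cell types in the member results was not tested.

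The partners of PIWI proteins in germ granules, mostly Tudor-domain proteins, followed in part. Of 13 such genes tested out of 16 listed, 6 were lower in B6 (Tdrd1, Tdrd5, Tdrd9, Stk31, Exd1 and Ddx25) and 1, Rnf17, was higher, against 3.44% and 1.17% of all tested probe sets. Tdrd1 lost its call without B6 wild-type array 3 (-1.61, adjusted p = 0.0701), and Stk31 without B6 wild-type array 2 (-1.26, adjusted p = 0.0619) or 3 (-1.20, adjusted p = 0.101). Tdrd9, a helicase that works with MIWI2, fell 11.8-fold in B6 (-3.56 ± 0.51, adjusted p = 0.00136). In 129Sv 1 was lower, Tdrd9, and 2 were higher, Tdrd12 and Rnf17, against 2.51% and 2.74% of all. Tdrd9 fell 4.38-fold there (-2.13 ± 0.51, adjusted p = 0.0263), and lost the call without 129Sv wild-type array 1, 2 or 3 or knockout array 1 or 2 (adjusted p of 0.0665 to 0.135).

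Tdrd12, a partner of PIWI proteins in making secondary piRNAs, was 2.47-fold higher in 129Sv knockout (1.31 ± 0.33, adjusted p = 0.0373). This call was lost without any one 129Sv array (adjusted p of 0.0743 to 0.136) and, narrowly, without B6 wild-type array 3 (0.0513). The brightest Rnf17 probe set, 1438820_at, was 1.98-fold higher in 129Sv knockout (0.98 ± 0.13, adjusted p = 0.000639) and 1.41-fold higher in B6 knockout (0.50 ± 0.13, adjusted p = 0.0472). Another Rnf17 probe set, 1459275_at, was lower in B6 (-1.55 ± 0.24, adjusted p = 0.00261), so the probe sets of Rnf17 disagreed in direction, and the B6 call of the brightest was kept in 9 of 28 alternatives.

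The genes that carry out methylation downstream of MIWI2 were lower in B6 for 3 of 4 tested. Dnmt3l, the partner that de novo DNA methyltransferases need in germ cells, fell 23.5-fold (-4.55 ± 0.54, adjusted p = 0.00043), Morc1, a transposon silencer of the male germ line, fell 5.46-fold (-2.45 ± 0.20, adjusted p = 2.54e-05), and Tex15, a nuclear partner of MIWI2, fell 3.17-fold (-1.66 ± 0.22, adjusted p = 0.000691). Dnmt3a was not called. In 129Sv Tex15 alone was called (-0.84 ± 0.22, adjusted p = 0.0402), kept in 18 of 28 alternatives and lost without any 129Sv wild-type array, 129Sv knockout array 1 or 2 or B6 wild-type array 1 (adjusted p of 0.052 to 0.173). Of 3 regulators known for piRNA genes in later spermatogenic cells, Tcfl5 (-0.81 ± 0.09, adjusted p = 0.000322) and Btbd18 (-1.28 ± 0.24, adjusted p = 0.0081) were lower in B6 and Mybl1 was not called. None of 2 arginine methylation genes and 3 chaperone genes was called in either strain.

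**Figure D4:**
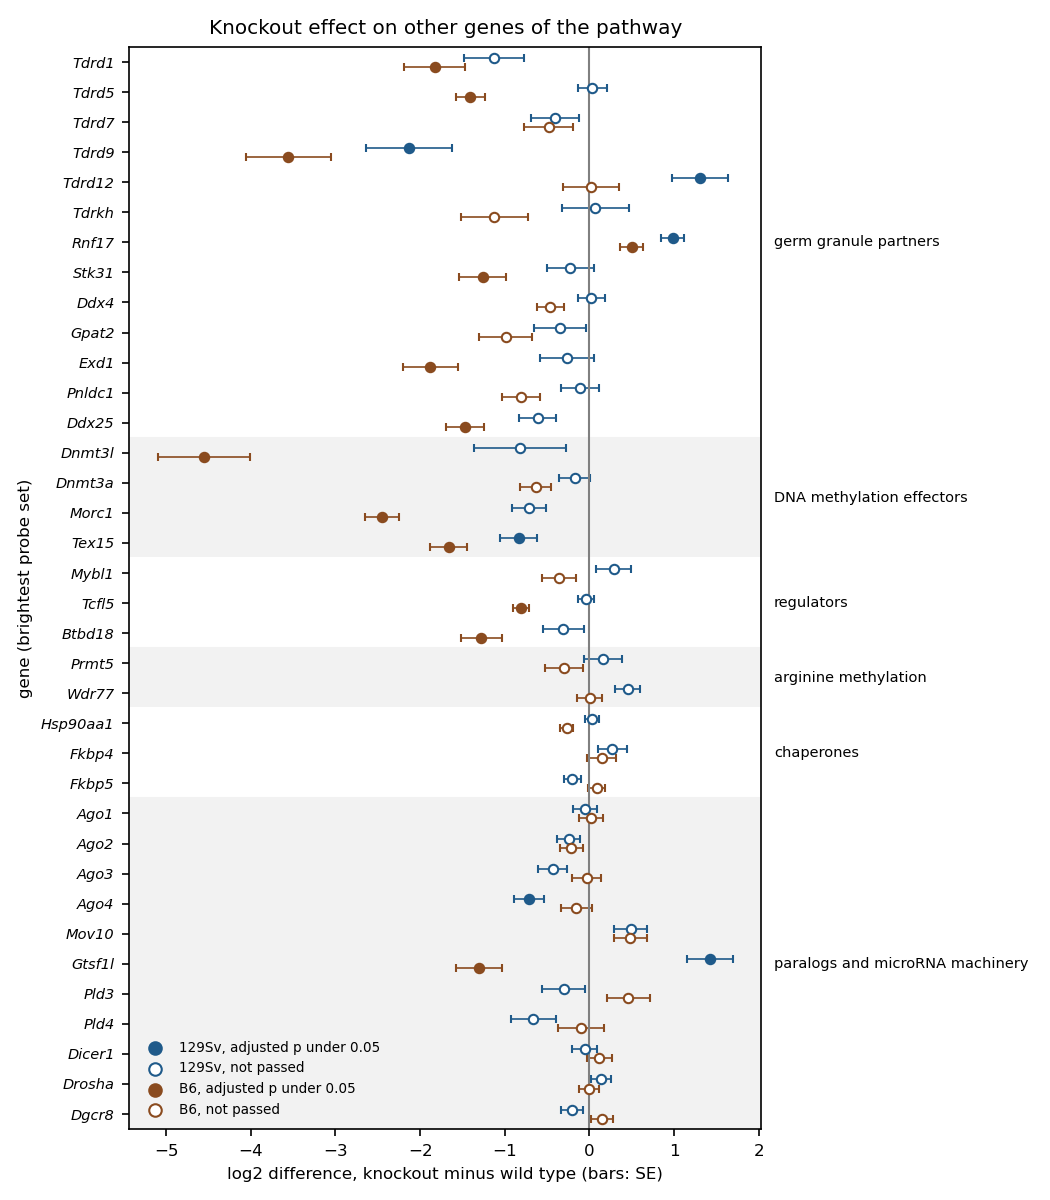
Log2 difference of knockout minus wild type with its SE (horizontal axis) for the brightest probe set of 36 other genes of the pathway and its relatives, by role; filled points have an adjusted p under 0.05. Filled B6 points to the left of 0 gather among the granule partners and methylation effectors, with Dnmt3l at -4.55 and Tdrd9 at -3.56, and the Argonaute and microRNA genes lie near 0 in B6.

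Paralogs of the members and microRNA genes were a contrast list. Of 11 tested, Gtsf1l, a relative of Gtsf1, was the 1 called in B6, lower by 2.48-fold (-1.31 ± 0.27, adjusted p = 0.0147). In 129Sv Gtsf1l was 2.68-fold higher in the knockout (1.42 ± 0.27, adjusted p = 0.00733), and Ago4, an Argonaute protein of the microRNA branch, was lower (-0.71 ± 0.18, adjusted p = 0.0369; lost without any one 129Sv array or B6 knockout array 2, adjusted p of 0.0523 to 0.146). Gtsf1l read 34.8, 36.6 and 35.2 in 129Sv wild type and 108, 91.1 and 87.7 in 129Sv knockout, against 39.5, 76.0 and 36.6 in B6 wild type and 20.7, 23.9 and 14.6 in B6 knockout. Its groups were apart in both strains, in opposite directions, and the difference of effects was 2.73 ± 0.38 (adjusted p = 0.00845).

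The genes whose log2 values followed the PIWI genes most closely over the 12 arrays, among 12726 genes, are given as a description, since the arrays share 4 groups that lie apart. Piwil4 was followed by Tex101, a germ cell surface glycoprotein (r = 0.984), Nlrp4f (0.972) and Nxf2 (0.969). Piwil2 was followed by Mlc1 (r = 0.984), Sema4d (0.982) and Spa17 (0.979). Piwil1 was followed by Rrad (r = 0.981), Ahi1 (0.979) and Ceacam10 (0.975).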

How the data were processed

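The authors deposited 1 intensity per probe set and array, made with GCRMA per the submitters' processing notes; no source used here gives its version. GCRMA corrects background by probe sequence and normalises quantiles, so values near the floor are compressed. Medians of 17.3 to 19.0 and a lowest value of 1.4 showed a linear scale, and log2 was taken. Gene names are those of the platform annotation, with symbols brought up to date by Entrez identifier (RefSeq, GRCm38.p6); 34958 probe sets had a single gene, 932 several and 9211 none, and 64 controls were left out. Groups and replicate numbers came from the sample descriptions.

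Tests used limma 3.58.1 in R 4.3.3 with 4 group means, eBayes with an intensity trend (8 residual and 5.28 prior degrees of freedom) and Benjamini-Hochberg adjustment over 24820 probe sets with log2 of at least 4 on at least 3 arrays; a call is an adjusted p under 0.05. A difference is knockout minus wild type or 129Sv minus B6, and its error an SE. Where a group mean lay under log2 of 4, folds are bounds against 4. A gene is counted by its probe set of highest mean. Named genes are all members, the called genes of the pathway lists, and the 3 genes closest to each PIWI gene by Pearson r. The members and lists were chosen with earlier results of these data known. On simulated data of 24820 probe sets, log2 changes of size 1 were found in 50% and of size 2 in 94% for the 129Sv comparison, and in 62% and 94% for B6. False calls made up 3.73% of calls for 129Sv and 6.29% for B6. The simulation used independent noise, no strain difference and few changed probe sets, so its rates need not hold for the real arrays. With arrays, precision is limited by their number, 3 in each group. Alternatives covered filters, probe set rules, normalisation, low values, variance model, samples fitted, blocks, covariates and left-out arrays.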

Additional observations from a re-analysis of the deposited data

Results flagged for a closer look

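The knockout effect differed between the strains, by the test of the difference itself, for members Gtsf1 and Asz1 and for 4 further genes. In log2, 129Sv minus B6, the difference was 2.54 and 2.66 on the Gtsf1 probe sets 1441836_x_at and 1452967_at and 1.10 on the Asz1 probe set 1424939_at. It was 1.44 for Tdrd5, a Tudor-domain granule protein (adjusted p = 0.0246), 1.74 for Morc1 (adjusted p = 0.0185), 0.77 for Tcfl5 (adjusted p = 0.0256) and 2.73 for Gtsf1l. Tdrd5 passed in 17 of 27 alternatives, Morc1 in 21, Tcfl5 in 15 and Gtsf1l in 25. All 4 lost the call with each array set relative to Ddx4 and Dazl (adjusted p of 0.15 to 0.562). They also lost it with the title number as a covariate (adjusted p of 0.113 to 0.205). The Gtsf1 and Asz1 differences above did not pass relative to Ddx4 and Dazl either (adjusted p of 0.15 to 0.306). Morc1 was lost without 129Sv wild-type array 1 or 3, B6 knockout array 2 or B6 wild-type array 3 (adjusted p of 0.0546 to 0.0759). Tdrd5 was lost without 129Sv wild-type array 1 or 3, 129Sv knockout array 2 or 3, B6 wild-type array 2 or 3 or B6 knockout array 2 (0.055 to 0.093), and Tcfl5 without any of these or 129Sv wild-type array 2 (0.0614 to 0.104).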

How the results depend on the processing

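Counts are of the 9 genes, Henmt1 included, in the direction given in the main account. Without the germ marker scaling, B6 gave 7 to 8 under every alternative, and 5 with it; leaving out 1 array gave 7 to 8, the 7 coming without B6 wild-type array 2 or 3 or B6 knockout array 2. In 129Sv the count of 1 became 2 with the mean of all probe sets, with only the groups compared, or with the replicate block, 0 with the title number as a covariate, 0 without the 2 arrays of highest Actb ratio (chosen after seeing the data), and 0 to 2 with 1 array left out. For the difference of effects, 2 became 1 with the mean of probe sets, 1 with the title number, 0 with the germ marker scaling and 1 to 3 with 1 array left out. In wild type, 1 became 2 with 1 probe set per gene, 3 with only the groups compared, 0 with the title number, 2 with the Actb ratio as a covariate, 0 with the germ marker scaling and 0 to 2 with 1 array left out. Between knockouts, 8 became 3 with the title number, 4 with the germ marker scaling and 8 to 9 with 1 array left out. With only the groups compared, the difference of effects is the fit already given. The causes were not tested.

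Deviations of same-numbered samples correlated at -0.511 to 0.203, and those of differently numbered samples at -0.404 to 0.403. With 3 arrays a group this check cannot exclude pairing by number, and in B6 the arrays numbered 1 share a title number, as do those numbered 2. The replicate block gave 2 in 129Sv and put the strain difference of Piwil4 1447564_x_at past the threshold (adjusted p = 0.047). It moved no other of these counts by over 1.5 times. With the title number shared within B6 as a random block (correlation 0.0795), 92 of 92 single probe set results kept their side of the threshold. Of 2516 alternatives of 92 single probe set results, 2262 kept direction and side of the threshold, 191 lost a call and 26 gained one. Of 37 sign changes, 35 were of differences that passed in neither fit; the called differences that turned were that of the dim Piwil4 probe set 1439716_at between knockouts with the title number (-0.011, adjusted p = 0.993) and that of Rnf17 in B6 with the mean of its probe sets (-0.55, adjusted p = 0.116). Henmt1 and the dim Piwil4 probe set are limited by signal near background.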
